A study of Oryza sativa Japonica Group and Oryza sativa Indica Group with 10 samples.

Results

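The CCCH zinc finger genes of rice were examined in young panicles of 93-11, an indica cultivar, and Nipponbare, a japonica cultivar. A gene was taken as a member if its symbol or a synonym in the RefSeq gene table of assembly ASM3414082v1 was OsC3H followed by a number, and if a probe set of the array was paired with that gene alone. Of 53 OsC3H numbers in the table, 50 genes had such a probe set, and they held 70 of the 57258 rice probe sets and 50 of the 17905 paired genes. OsC3H38, OsC3H56 and OsC3H67 had none and were not analysed here. A single probe set represented 36 of the genes, 9 genes had 2 probe sets, 4 had 3, and OsC3H12 had 4. Where a gene had several probe sets, they are lettered a, b, c and d here in order of falling mean signal over the 10 arrays, so that OsC3H18c is the dimmest of the 3 for OsC3H18.

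The panicles were 2 cm long, and RNA of 5 biological replicates of 93-11 and 5 of Nipponbare was hybridized, 1 sample per array, to the Affymetrix rice array, which reads 1 colour. Both cultivars were sampled without any treatment that the labels name, and whether a replicate was 1 plant or a pool, or when it was harvested, is not given in the sources used here. A probe set is a group of short probes for 1 transcript, and its signal is a brightness on a linear scale with no unit. Most probes of the array were designed on japonica transcripts, so a lower transcript level in 93-11 and a poorer match of its transcript to the probes cannot be told apart by a probe set that is dimmer in 93-11.

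A CCCH zinc finger is a short loop in which cysteine residues and a histidine hold a zinc ion. Many proteins with such fingers bind RNA: in animals and yeast, members with a tandem pair of fingers bind AU-rich elements of messenger RNA and speed its decay, and other members take part in splicing, in cutting of the pre-mRNA 3' end or in RNA export, while some plant members act in the nucleus on transcription. In rice, named members are known from leaf senescence (OsC3H2, also named OsDOS), leaf and tiller angle and brassinosteroid signalling (OsC3H46, OsLIC), flowering time (OsC3H20, Ehd4), resistance to bacterial blight (OsC3H12) and drought tolerance (OsC3H10 and OsC3H47). OsC3H60 is U2AF35A, the small subunit of the splicing factor U2AF that recognises the end of an intron, and OsC3H41 is the makorin gene MKRN, which encodes a RING-type ubiquitin ligase.

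As deposited, the 93-11 arrays were dimmer on average. The mean signal of an array, without the brightest and the dimmest 2% of its probe sets, was 213 ± 18.5 in 93-11 and 277 ± 62.4 in Nipponbare (SD, n = 5 each), and the median log2 difference of all rice probe sets, 93-11 minus Nipponbare, was -0.16. Each result is therefore given as deposited and after scaling of every array to a common trimmed mean, where this median was 0.03. The ratio of the 3' to the 5' probe sets of the Gapdh control was 3.38 to 6.31 in 93-11 and 2.82 to 5.72 in Nipponbare. Of 19 probe sets for young panicle markers, 16 passed a mean log10 signal of 2.5 in each cultivar, against 0 of 4 for anther and tapetum and 0 of 10 for endosperm. Some of these markers differed between cultivars. OsSPL14 and RFL were called higher in 93-11 on both scales, with scaled log2 differences of 1.78 and 1.03 (limma adjusted p = 5.93e-06 and 1.71e-04). LAX1 was called higher only after scaling, at 0.88 (0.00846). OSH1 was called lower on both scales in 1 probe set, at -1.30 when scaled (4.38e-08), and on neither in the other. Of 7 leaf marker probe sets, 1 was above that level in both cultivars, yet their summed signal was 464 to 2515 in 93-11 and 11655 to 19252 in Nipponbare. CAB2R and PSAH, genes of light harvesting and of photosystem I, accounted for the 3 leaf probe sets that were lower in 93-11 on both scales. The sum was mostly that of CAB2R, with means of 573 and 178 in 93-11 and 8948 and 4149 in Nipponbare. The other leaf probe sets were of RBCS, and none of them was called lower on either scale. After scaling, 1 of them was called higher in 93-11, with a log2 difference of 0.87 (limma adjusted p = 0.00679). The part of leaf or green tissue, or of panicle stage, in the differences below was not tested.

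Most CCCH genes gave a high signal in the young panicle. A probe set was counted as highly expressed if the mean log10 signal of its 5 arrays was above 2.5, the level at which the study, working on the intensities of single probes, selected probe sets. By this measure 44 of the 70 probe sets (62.9%) were highly expressed in both cultivars, against 19.2% of all rice probe sets and 40.1% of the probe sets paired with exactly 1 gene. Counted by the strongest probe set of each gene, 35 of the 50 genes (70%) passed, against 46.0% of all paired genes. On every one of the 10 arrays, 37 of the 70 probe sets had a signal above this level.

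No probe set was above the level in 93-11 alone, and 4 were above it in Nipponbare alone: OsC3H40, OsC3H4, OsC3H19 and OsC3H18c. The remaining 22 were above it in neither cultivar. Of all 57258 rice probe sets, 360 were above it in 93-11 alone and 2095 in Nipponbare alone. After scaling, 44 were again above it in both, 4 in Nipponbare alone and 1, OsC3H37, in 93-11 alone, beside 1251 and 930 of all rice probe sets in Nipponbare alone and in 93-11 alone. The count depended on the level chosen, with 50 of 70 above a log10 signal of 2.0 and 15 of 70 above 3.0 in both cultivars.

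Just inside the level of 2.5 were OsC3H8b, with a mean log10 signal of 2.51 in 93-11 and 2.65 in Nipponbare, and OsC3H55a, with 2.52 in 93-11 and 2.64 in Nipponbare. Just outside were OsC3H37, with 2.44 in 93-11 and 2.45 in Nipponbare, and OsC3H19, with 2.43 in 93-11 and 2.62 in Nipponbare.

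**Figure D1:**
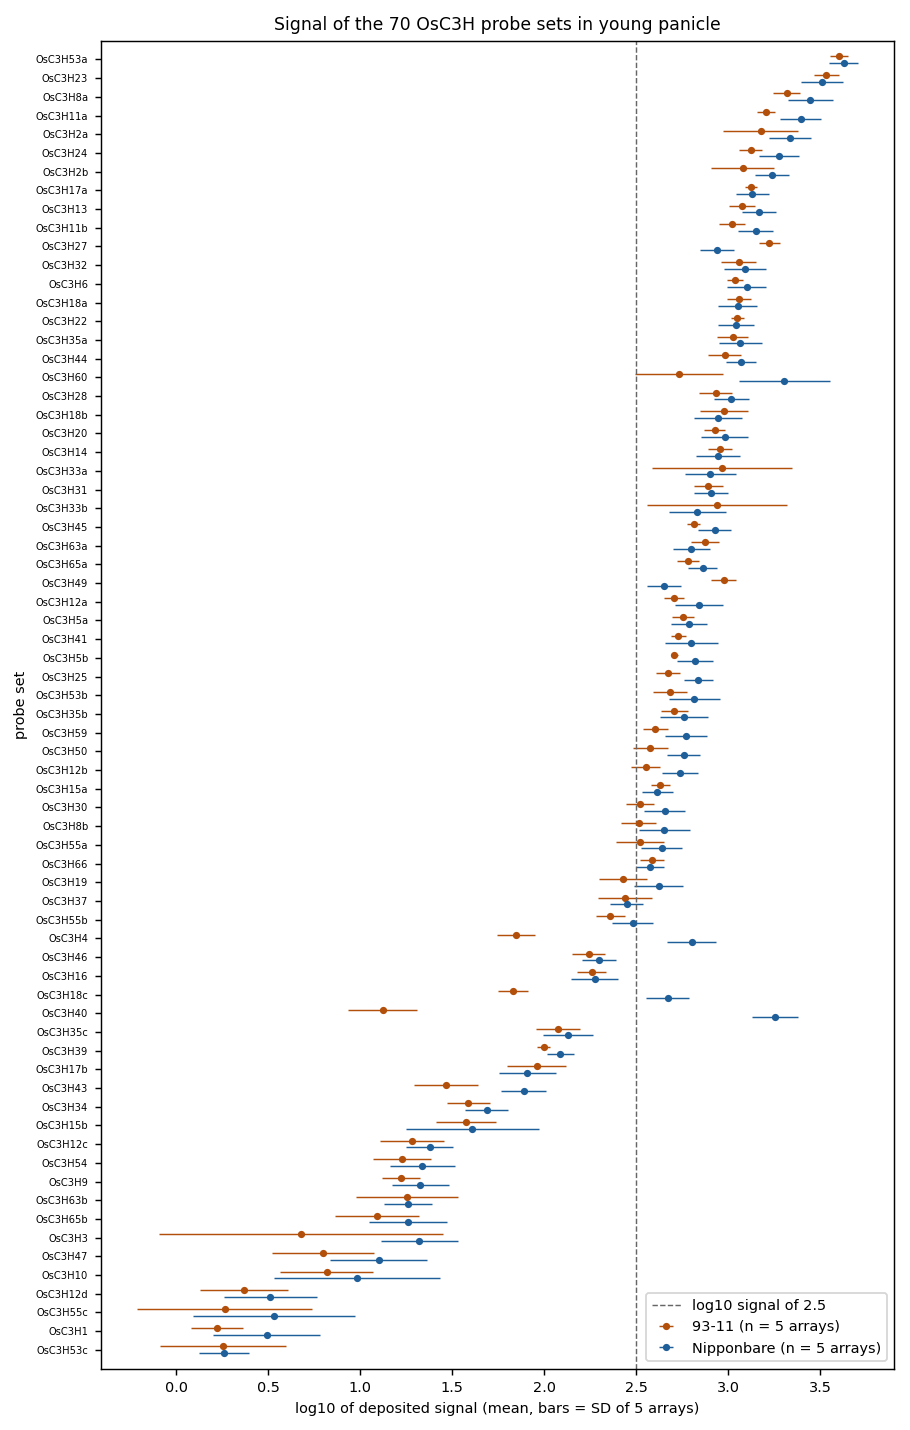
Mean log10 of the deposited signal (horizontal axis, no unit) of each of the 70 OsC3H probe sets, ordered by their mean over the 10 arrays, with bars for the SD of 5 arrays, 93-11 drawn above Nipponbare within each row and a dashed line at 2.5. The cultivars lie close together in most rows, and OsC3H40 stands out with 1.12 in 93-11 and 3.25 in Nipponbare.

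The strongest probe set was OsC3H53a, with signals of 4279, 3718, 4788, 3805 and 3658 in 93-11 and 3805, 5735, 4281, 4217 and 3585 in Nipponbare. The second was that of OsC3H23, with 4423, 3452, 3381, 2831 and 3243 in 93-11 and 3118, 4772, 3595, 2842 and 2348 in Nipponbare. In both genes the cultivars overlapped as deposited, and the highest array was Nipponbare replicate 2, the brightest array of the series. The order is one of signals, which also depend on how well each probe set binds, and not of the number of transcripts.

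The other 8 probe sets among the 10 strongest belonged to 7 genes. OsC3H8a had 2103 ± 343 in 93-11 and 2889 ± 782 in Nipponbare (SD, n = 5 each, here and below), and OsC3H11a had 1616 ± 180 in 93-11 and 2553 ± 695 in Nipponbare. OsC3H24 had 1338 ± 205 in 93-11 and 1937 ± 526 in Nipponbare, and OsC3H13 had 1203 ± 199 in 93-11 and 1506 ± 350 in Nipponbare. OsC3H17a had 1332 ± 103 in 93-11 and 1382 ± 304 in Nipponbare. Of these 5, OsC3H11 was called lower in 93-11 on both scales, OsC3H17 was called higher after scaling, and OsC3H8, OsC3H24 and OsC3H13 were called on neither scale. OsC3H2, the regulator that delays leaf senescence, held both the fifth and the seventh place with 1651 ± 862 and 1282 ± 549 in 93-11 and 2232 ± 594 and 1758 ± 367 in Nipponbare. The array's naming marks OsC3H2a, like OsC3H8b, OsC3H11b and OsC3H12a, as having probes that other transcripts may share or bind. OsC3H60 held the eighth place and is described with the differences.

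Members with a described role were found over the whole range of signals. OsC3H20 (Ehd4), which promotes flowering, had 850.0 ± 108 in 93-11 and 992 ± 303 in Nipponbare, and the makorin gene OsC3H41 had 539 ± 50.8 in 93-11 and 661 ± 233 in Nipponbare. OsC3H46 (OsLIC) was below the level of 2.5, with 178 ± 40.6 in 93-11 and 202 ± 43.2 in Nipponbare. The drought tolerance genes OsC3H10 and OsC3H47 were among the dimmest, with 7.52 ± 4.49 and 7.19 ± 3.61 in 93-11 and 13.4 ± 10.05 and 14.6 ± 9.39 in Nipponbare. None of these 5 genes was called between cultivars on either scale. OsC3H20, OsC3H41, OsC3H10 and OsC3H47 were named for their role after their values had been seen.

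By their mean log10 signal over the 10 arrays, 2 probe sets lay above 3.5, 16 between 3 and 3.5, 27 between 2.5 and 3, 9 between 2 and 2.5, 4 between 1.5 and 2, 5 between 1 and 1.5, and 7 below 1. Of the 12 genes whose strongest probe set was above 2.5 in neither cultivar, the dimmest was OsC3H1, with 1.74 ± 0.556 in 93-11 and 3.67 ± 2.25 in Nipponbare, and the brightest was OsC3H37, with 289 ± 109 in 93-11 and 286 ± 57.2 in Nipponbare. At such low signals, as in OsC3H1, a dim probe set gives no order between cultivars. Between log10 2.5 and 3, the median SD of log2 signal within cultivars was 0.31 for the 27 members and 0.31 for all rice probe sets as deposited, and 0.17 and 0.19 after scaling. In the dim bands the few members lay to either side: as deposited the median SD was 0.51 for 4 members and 0.47 for all rice probe sets between log10 1.5 and 2, 0.55 for 5 members and 0.82 for all between 1 and 1.5, and 0.90 for 7 members and 1.23 for all below 1.

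The members lay on 11 chromosomes, with the most genes, 11, on chromosome 1, of which 6 were above the level of 2.5 in both cultivars. All 5 genes of chromosome 3, all 5 of chromosome 4 and both of chromosome 9 and of chromosome 12 were above it, against 2 of 5 on chromosome 5 and 3 of 6 on chromosome 6. The counts were 5 of 7 on chromosome 2, 3 of 4 on chromosome 7, 1 of 2 on chromosome 8 and 1 of 1 on chromosome 11. Shares of all paired genes by chromosome were not taken, and with so few genes no pattern is read from these counts. The array table carries no genome build, so these places are those of the RefSeq table.

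Differences between cultivars were tested with limma on log2(signal + 16) over all 57258 rice probe sets, 93-11 minus Nipponbare, and a probe set was called if its Benjamini-Hochberg adjusted p was under 0.05. As deposited, 10 of the 70 OsC3H probe sets were called (14.3%), against 13.5% of all rice probe sets and 19.4% of those paired with 1 gene. Of the 70, 2 were called higher in 93-11 (2.86%, backgrounds 1.66% and 1.68%) and 8 lower (11.4%, backgrounds 11.9% and 17.8%). After scaling, 17 were called (24.3%), against 17.1% of all rice probe sets and 26.1% of those paired with 1 gene, and of the 70, 11 were called higher (15.7%, backgrounds 7.84% and 12.6%) and 6 lower (8.57%, backgrounds 9.21% and 13.6%). The family's share of calls in either direction lay between the shares of these 2 backgrounds on both scales. By direction, its shares of lower calls were close to those of all rice probe sets and below those of the probe sets paired with 1 gene. Its shares of higher calls were above both backgrounds, but as deposited this rested on 2 probe sets. These differences in share were not tested, and no trait of the family is read from them. The median log2 difference of the members was -0.22 as deposited and 0.04 after scaling, beside -0.16 and 0.03 over all rice probe sets. In whole panicles, fewer cells of a type and less RNA per cell cannot be told apart.

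All arrays of one cultivar lay above all arrays of the other for 7 of the 70 probe sets as deposited (10%, backgrounds 11.9% and 16.8%) and for 13 after scaling (18.6%, backgrounds 14.6% and 22.2%). On both scales, 8 probe sets were called in the same direction, 2 higher (OsC3H27 and OsC3H49) and 6 lower (OsC3H40, OsC3H4, OsC3H18c, OsC3H60, OsC3H43 and OsC3H11a). No probe set was called in opposite directions. Scaling to the hybridization controls left 2 higher and 5 lower, and the 9 calls made only after scaling to the trimmed mean were lost. The SE of these differences also rose, as from 0.08 to 0.16 in OsC3H15a and from 0.13 to 0.19 in OsC3H63a. Whether the level or the spread of the arrays removed these calls was not tested. Over all 57258 rice probe sets, scaling to the hybridization controls gave 1413 higher and 5148 lower, against 4490 and 5274 with the trimmed mean. The count of lower calls as deposited was 5 without 93-11 replicate 2 or Nipponbare replicate 1 and 18 without Nipponbare replicate 5, the dimmest Nipponbare array. Over all 57258 rice probe sets, 6788 were called lower with all arrays. This count was 5325 without 93-11 replicate 2, 5677 without Nipponbare replicate 1 and 9678 without Nipponbare replicate 5.

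**Figure D2:**
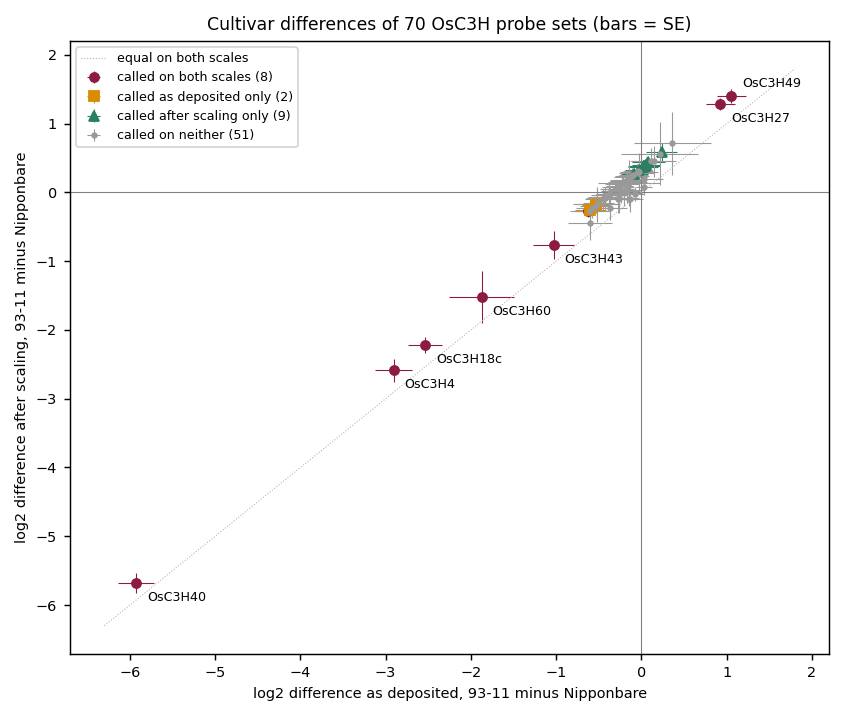
Log2 difference, 93-11 minus Nipponbare, of each of the 70 OsC3H probe sets as deposited (horizontal axis) and after scaling (vertical axis), with bars for the SE of limma and symbols for the scale on which a probe set was called. OsC3H40 lies far at the lower left with -5.93 as deposited and -5.68 after scaling, OsC3H27 and OsC3H49 lie at the upper right, and the points run above the dotted line of equal differences since scaling multiplied the 93-11 arrays by 1.16 and the Nipponbare arrays by 0.918 on average.

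OsC3H40 showed the largest difference of the family. Its signals were 17.4, 12.4, 9.71, 23.8 and 8.13 on the 93-11 arrays and 1756, 2726, 1764, 1832 and 1212 on the Nipponbare arrays. In 93-11 it lay between the percentiles 30.8 and 53.5 of the rice probe sets of its array, and in Nipponbare between 93.8 and 95.2. The cultivars did not overlap, and each 93-11 array was near or below the middle of all probe sets while each Nipponbare array was near the top. The log2 difference was -5.93 ± 0.21 (SE, limma adjusted p = 9.71e-12) as deposited and -5.68 ± 0.15 (7.25e-12) after scaling. It was lower in 93-11 and called under every alternative that included it; a filter on a mean log10 signal above 2.5 removed it from the test. A single probe set represented this gene, and its signal cannot tell an absent transcript from one that the probes do not match.

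OsC3H4 was the next in size. It had 80.7, 93.5, 69.7, 66.6 and 49.9 in 93-11 and 793, 744, 777, 584 and 380 in Nipponbare. The highest 93-11 array lay far below the lowest Nipponbare array. The log2 difference was -2.90 ± 0.22 (limma adjusted p = 5.75e-08) as deposited and -2.59 ± 0.17 (7.97e-08) after scaling. On chromosome 1 OsC3H4 stood near OsC3H5 and OsC3H6, with 3 and 4 other genes between consecutive members, and neither of these was called. OsC3H5a and OsC3H5b had 575 ± 77.6 and 509 ± 23.1 in 93-11 and 623 ± 141 and 674 ± 149 in Nipponbare, and OsC3H6 had 1092 ± 108 in 93-11 and 1290 ± 286 in Nipponbare.

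OsC3H18 gave results that differed between its 3 probe sets. OsC3H18c had 86.5, 63.6, 73.3, 67.6 and 52.6 in 93-11 and 477, 701, 391, 503 and 350 in Nipponbare, with no overlap. Its log2 difference was -2.53 ± 0.20 (limma adjusted p = 1.09e-07) as deposited and -2.22 ± 0.12 (9.24e-09) after scaling. The other two probe sets showed no such fall. OsC3H18a, which the array's naming marks as having probes that may also bind other transcripts, had 1154 ± 175 in 93-11 and 1156 ± 315 in Nipponbare as deposited. After scaling it had 1324 ± 126 in 93-11 and 1021 ± 113 in Nipponbare, a log2 difference of 0.37 ± 0.09 (limma adjusted p = 0.0147). OsC3H18b had 986 ± 307 in 93-11 and 914 ± 288 in Nipponbare and was called on neither scale, with a log2 difference of 0.46 ± 0.18 after scaling (limma adjusted p = 0.115). The brightest probe sets of OsC3H18 thus did not give the direction of its dimmest one, and no direction can be given for the gene as a whole.

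OsC3H60, the splicing factor gene U2AF35A, varied widely within each cultivar. It had 367, 290, 1104, 796 and 496 in 93-11 and 3254, 3207, 817, 2217 and 1806 in Nipponbare. The cultivars overlapped, because 93-11 replicate 3 was above Nipponbare replicate 3, the lowest Nipponbare array. The SD of its log2 signal within cultivars was 0.80 as deposited, beside a median of 0.29 for members with a mean log10 signal between 3 and 3.5. The log2 difference was -1.87 ± 0.38 (limma adjusted p = 0.00262) as deposited and -1.52 ± 0.38 (0.0129) after scaling, and it stayed called without any single array. After scaling the call was lost with robust eBayes (limma adjusted p = 0.0545), with the analysis of variance of the study's methods (0.0722) and without both arrays numbered 5 (limma, 0.0536). The gene for the other small subunit, OsC3H38, is among those not analysed here.

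OsC3H43 was dim in both cultivars, with 42.3, 39.3, 30.1, 27.7 and 15.4 in 93-11 and 89.2, 92.2, 102, 63.3 and 52.0 in Nipponbare. The values did not overlap, though all were far below the level of 2.5 on the log10 scale. The log2 difference was -1.03 ± 0.24 (limma adjusted p = 0.00783) as deposited and -0.77 ± 0.20 (0.0186) after scaling. The call after scaling was lost without Nipponbare replicate 1 or 3, where the highest adjusted p was 0.0511, and with quantile normalization (limma adjusted p = 0.0751).

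OsC3H11 was bright and differed little. OsC3H11a had 1634, 1449, 1885, 1661 and 1453 in 93-11 and 2662, 3685, 2226, 2338 and 1854 in Nipponbare, where only the lowest Nipponbare array lay below the highest 93-11 array. Its log2 difference was -0.62 ± 0.18 (limma adjusted p = 0.0274) as deposited and -0.27 ± 0.08 (0.0391) after scaling. As deposited the call was lost without 93-11 replicate 1, 2, 4 or 5 or Nipponbare replicate 1, with adjusted p up to 0.0790. After scaling it was lost without 93-11 replicate 1, 2 or 5 or Nipponbare replicate 1, 2, 4 or 5, with adjusted p up to 0.104. It was also lost as deposited with the analysis of variance (adjusted p = 0.0654), and after scaling with eBayes without trend (0.0966), without both arrays numbered 5 (0.0801), with scaling to the median (0.215) and with scaling to the hybridization controls (0.120). With the replicate number as a block in the fit, the call after scaling was lost as well (limma adjusted p = 0.0605). Its other probe set, OsC3H11b, had 1060 ± 174 in 93-11 and 1440.5 ± 342 in Nipponbare and was not called on either scale.

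Called lower only as deposited were OsC3H25 and 1 of the 4 probe sets of OsC3H12. OsC3H25 had 433, 386, 551, 486 and 523 in 93-11 and 643, 923, 608, 727 and 601 in Nipponbare, with a log2 difference of -0.54 ± 0.16 (limma adjusted p = 0.0388), against -0.19 ± 0.11 after scaling (0.320). It did not overlap as deposited and overlapped after scaling. OsC3H12b, a probe set of the gene linked to bacterial blight resistance, had 419, 332, 413, 271 and 372 in 93-11 and 585, 719, 608, 489 and 401 in Nipponbare, where the lowest Nipponbare array lay below the highest 93-11 arrays. Its log2 difference was -0.60 ± 0.18 (limma adjusted p = 0.0381) as deposited and -0.26 ± 0.10 (0.0979) after scaling. The call of OsC3H25 was lost without 93-11 replicate 1, 2 or 4 or Nipponbare replicate 1, 2, 3 or 4, with adjusted p up to 0.121. That of OsC3H12b was lost without 93-11 replicate 2, 4 or 5 or Nipponbare replicate 1, 2, 3 or 4, with adjusted p up to 0.114. With the analysis of variance, the adjusted p was 0.0516 for OsC3H25 and 0.0758 for OsC3H12b. With the replicate number as a block in the fit, OsC3H25 was not called as deposited (limma adjusted p = 0.0842), and OsC3H12b was also called lower after scaling (0.0489).

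The other 3 probe sets of OsC3H12 were not called on either scale. OsC3H12a had 513 ± 65.2 in 93-11 and 719 ± 202 in Nipponbare. OsC3H12c and OsC3H12d were dim, with 20.4 ± 8.04 and 2.63 ± 1.38 in 93-11 and 24.6 ± 6.28 and 3.64 ± 1.73 in Nipponbare.

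**Figure D3:**
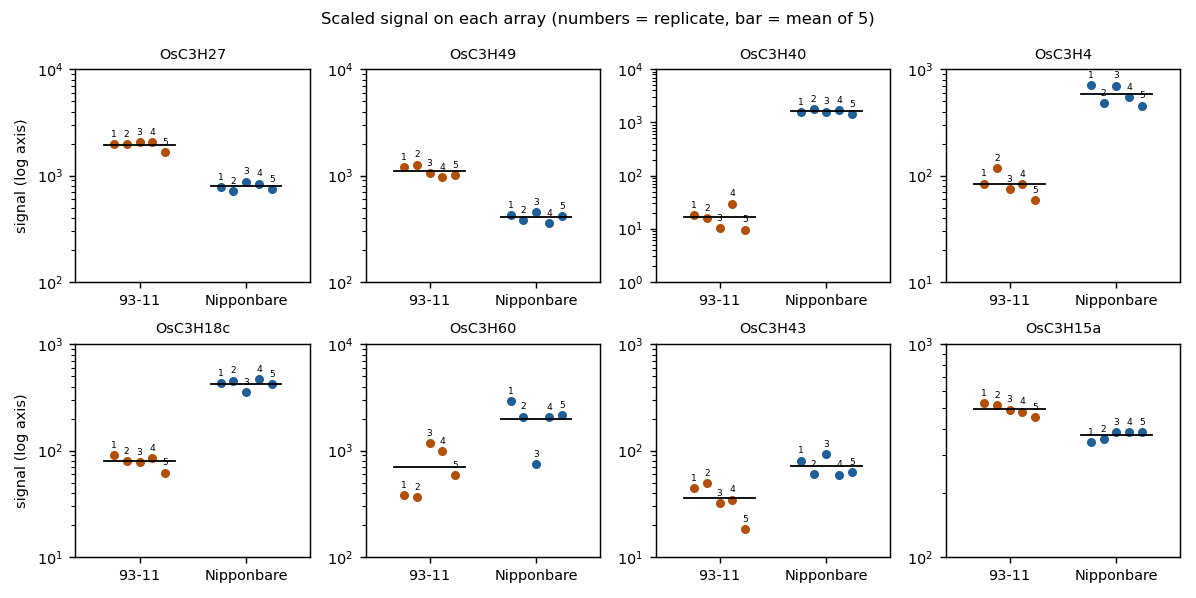
Scaled signal (log axis, no unit) on each array for OsC3H27, OsC3H49, OsC3H40, OsC3H4, OsC3H18c, OsC3H60, OsC3H43 and OsC3H15a, with 93-11 left and Nipponbare right in each panel, replicate numbers over the points and bars at the mean of 5 arrays. The cultivars are apart in every panel but that of OsC3H60, where 93-11 replicates 3 and 4 lie above Nipponbare replicate 3.

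Higher in 93-11 on both scales were OsC3H27 and OsC3H49. OsC3H49 had 1158, 1014, 989, 774 and 860 in 93-11 and 467, 590, 502, 379 and 345 in Nipponbare, so that every 93-11 array was above every Nipponbare array. Its log2 difference was 1.06 ± 0.17 (limma adjusted p = 3.82e-04) as deposited and 1.40 ± 0.10 (1.68e-07) after scaling. After scaling it had 1206, 1269, 1056, 965 and 1013 in 93-11 and 421, 384, 454, 354 and 413 in Nipponbare.

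OsC3H27 had 1891, 1576, 1928, 1657 and 1405 in 93-11 and 863, 1104, 967, 897 and 621 in Nipponbare, again with no overlap. Its log2 difference was 0.93 ± 0.17 (limma adjusted p = 9.30e-04) as deposited and 1.28 ± 0.09 (1.03e-07) after scaling. Leaving out any one array kept both genes called, with a log2 difference after scaling of 1.25 to 1.34 for OsC3H27 and of 1.35 to 1.45 for OsC3H49. Both genes were above the level of 2.5 in both cultivars, so that neither call rested on a signal near the floor of the array.

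After scaling, 9 further probe sets were called higher, with log2 differences of 0.27 to 0.59, and none of them was called as deposited, where their differences were -0.08 to 0.24. OsC3H15a had 530, 518, 493, 482 and 455 in 93-11 and 347, 359, 386, 384 and 386 in Nipponbare after scaling, with no overlap and a log2 difference of 0.40 ± 0.08 (limma adjusted p = 0.00313). OsC3H17a had 1518, 1560, 1525, 1563 and 1501 in 93-11 and 1172, 1220, 1300, 1135 and 1302 in Nipponbare after scaling, a log2 difference of 0.32 ± 0.07 (limma adjusted p = 0.00409). In both of these probe sets the replicates of 93-11 lay close together once the arrays had been scaled. The other probe sets of these genes were dimmer, more spread and called on neither scale. After scaling, OsC3H15b had 46.7 ± 18.8 in 93-11 and 45.0 ± 31.7 in Nipponbare. OsC3H17b had 111.9 ± 42.0 in 93-11 and 74.6 ± 16.4 in Nipponbare.

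OsC3H66 had 498, 523, 390, 409 and 424 in 93-11 and 325, 291, 365, 375 and 340 in Nipponbare after scaling, with a log2 difference of 0.38 ± 0.11 (limma adjusted p = 0.0248). OsC3H53a had 4656 ± 305 in 93-11 and 3856 ± 315 in Nipponbare after scaling, with a log2 difference of 0.27 ± 0.08 (limma adjusted p = 0.0264). The call of OsC3H66 was lost without replicate 1 or 2 of either cultivar, with adjusted p up to 0.0712, and that of OsC3H53a without 93-11 replicate 2, 3 or 4 or Nipponbare replicate 1 or 2, with adjusted p up to 0.0771. OsC3H53a was also not called with eBayes without trend (limma adjusted p = 0.0794) or with quantile normalization (0.0549). The dimmer OsC3H53b and OsC3H53c were called on neither scale. As deposited they had 492 ± 93.1 and 2.38 ± 2.24 in 93-11 and 681 ± 197 and 1.89 ± 0.595 in Nipponbare. OsC3H66 was not called with the replicate number as a block (limma adjusted p = 0.0519). The other 7 of the 9 kept their call without any single array. OsC3H63a, which was singled out after its values had been seen, had the largest of these differences, 0.59 ± 0.13 (limma adjusted p = 0.00520), with 871 ± 122 in 93-11 and 577 ± 104 in Nipponbare and overlapping arrays. The others of the 9 were OsC3H18a, OsC3H14, OsC3H22 and OsC3H23.

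OsC3H22 and OsC3H23 are direct neighbours on chromosome 3 with no gene between them. After scaling, OsC3H23 had 4608, 4322, 3608, 3532 and 3822 in 93-11 and 2813, 3102, 3254, 2661 and 2814 in Nipponbare, with no overlap and a log2 difference of 0.44 ± 0.09 (limma adjusted p = 0.00404). OsC3H22 had 1301 ± 126 in 93-11 and 999.8 ± 95.8 in Nipponbare after scaling, with overlapping arrays and a log2 difference of 0.37 ± 0.09 (limma adjusted p = 0.0107). As deposited the differences were 0.08 ± 0.19 for OsC3H23 and 0.02 ± 0.16 for OsC3H22, and neither was called. OsC3H22 was singled out as the neighbour of OsC3H23 after its values had been seen.

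The remaining 51 probe sets were called on neither scale, and their log2 differences after scaling were between -0.44 and 0.71. An unadjusted p under 0.05 was reached by 22 of the 70 probe sets (31.4%) on each scale, against 24.2% of all rice probe sets and 33.1% of those paired with 1 gene as deposited, and 27.1% and 39.4% after scaling. With 5 arrays in each cultivar, and a median SE of the log2 difference of 0.14 after scaling among these 51, smaller differences may not have been detectable.

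The 14 genes with more than 1 probe set held 34 of the 70. In 9 of them some probe sets were above the level of 2.5 in both cultivars and others were not, and in 5 all were above it. A very dim probe set can show only a small difference on the scale of log2(signal + 16), so the probe sets of a gene were set side by side only where their mean log10 signal over the 10 arrays was above 2.0, a restriction made after the values had been seen. This left 22 probe sets of 10 genes. Their log2 differences after scaling spanned 0.0053 to 0.35 in 9 of the 10 genes and 2.68 in OsC3H18, and the spans were not tested.

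**Figure D4:**
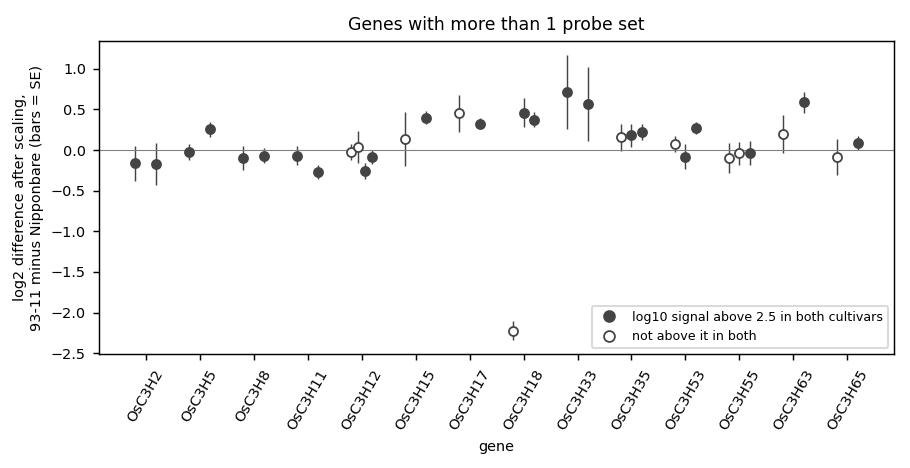
Log2 difference after scaling, 93-11 minus Nipponbare (vertical axis, bars for the SE of limma), of each probe set of the 14 OsC3H genes with more than 1 probe set, in order of signal within a gene. Filled points passed the mean log10 signal of 2.5 in each cultivar and open points did not, and the point of OsC3H18 at -2.22 lies apart from the other probe sets of that gene at 0.37 and 0.46.

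Replicate 5 of 93-11 differed from the other 4 arrays of its cultivar in some members. Both probe sets of OsC3H33, which stand for the same transcript and are not independent, were far higher there: OsC3H33a had 649, 480.5, 711, 704 and 4360 in 93-11 and 816, 1353, 757, 668 and 585 in Nipponbare, and OsC3H33b had 673, 497, 695, 537 and 4111 in 93-11 and 810.5, 1115, 684, 505 and 463 in Nipponbare. As for OsC3H18a, the array's naming marks both as having probes that other transcripts may share or bind, so the signal may not be that of OsC3H33 alone. After scaling, replicate 5 was 7.05 and 7.08 times the mean of the other 4 arrays of 93-11, while Nipponbare replicate 5 was 0.96 and 0.87 times the mean of the other 4 of Nipponbare. The same array was the highest in both probe sets of OsC3H2, at 2.47 and 2.11 times the mean of the other 4, in OsC3H37 at 2.03 times and in OsC3H46 at 1.59 times. In OsC3H37, Nipponbare replicate 5 was also high, at 1.88 times the mean of the other 4. OsC3H33 and this comparison were chosen after the values had been seen.

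The log2 difference of OsC3H33 was 0.56 ± 0.46 (OsC3H33a, limma adjusted p = 0.498) and 0.71 ± 0.46 (OsC3H33b, 0.367) after scaling, so neither was called. It rested on that array: without 93-11 replicate 5 the differences were 0.0018 and 0.15 after scaling, and as deposited they were -0.34 and -0.19, against 0.21 and 0.36 with it. Among the 54 members with a mean log10 signal above 2.0, this array stood apart from the other 4 after scaling in 8 (14.8%), 4 of them as the highest and 4 as the lowest, against 6.27% of the 18197 rice probe sets above that signal. The 8 include both probe sets of OsC3H33, which were chosen for their values on this array, so nothing is read from the higher share. Nipponbare replicate 5 stood apart in 1 of the 54 members and in 4.46% of all. Each of the other 8 arrays did so in 0 to 2 members and in 0.291% to 1.76% of all. The 3' to 5' ratio of the Gapdh control was 6.15 on 93-11 replicate 5 and 5.72 on Nipponbare replicate 5, the highest of its cultivar. It was 6.31 on 93-11 replicate 1, which stood apart in 0 members and in 0.412% of all, a share at which few members would be counted. The cause of these values was not tested.

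**Figure D5:**
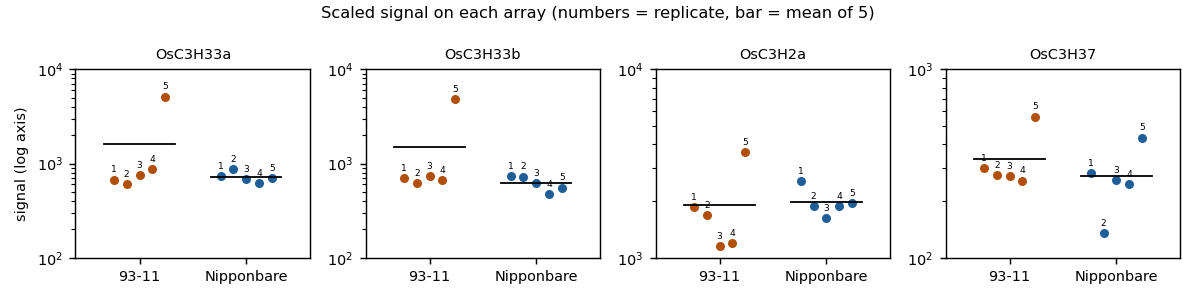
Scaled signal (log axis, no unit) on each array for both probe sets of OsC3H33, for OsC3H2a and for OsC3H37, with 93-11 left and Nipponbare right, replicate numbers over the points and bars at the mean of 5 arrays. The point of 93-11 replicate 5 is the highest of its cultivar in every panel, and in OsC3H33 it lifts the mean of 93-11 above all other arrays.

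Few genes for partners of RNA decay, and few of other numbered families, were found in the gene table. The only match among deadenylation, decapping and poly(A)-binding partners was OsPAB1, a poly(A)-binding protein gene, whose 3 probe sets included 2 above the level of 2.5 in both cultivars and none that was called on either scale, with a median log2 difference of 0.04 after scaling. Other numbered families of the same table gave 5 probe sets for Dof transcription factors, of which 1 was lower as deposited and 2 others were higher after scaling, and 7 for WRKY factors, of which 1 was lower on each scale. The OsWD40 family had 2 probe sets, with 0 called as deposited and 1 higher after scaling. With so few probe sets, no comparison with the OsC3H genes was made.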

How the data were processed

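Labeled RNA of 5 young panicle replicates of each cultivar was hybridized singly. The deposited table holds, for each array, 1 intensity (signal) per probe set on a linear scale. GCOS 1.3 is named in the submitters' processing notes. How it summarised probes, and any scaling target, is not given in the sources used here. Of 57381 probe sets, 123 controls were left out of the tests. A pairing with exactly 1 gene was found for 22436 rice probe sets, with more than 1 for 95, and with no gene for 34727. No column was left unmapped. The members, gene lists and tests were chosen with earlier results of these data known.

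The fit of limma 3.58.1 (R 4.3.3) was made on log2(signal + 16) by lmFit and eBayes with a trend and no block, two-sided, with Benjamini-Hochberg adjustment over all rice probe sets and a threshold of 0.05. Fold changes on this scale understate those of dim probe sets. For the scaled values, each array was multiplied to bring its mean, trimmed by 2% at each end, to the average of the 10 arrays. Tables and plots were made with Python 3.11.15, numpy 2.4.6, pandas 2.3.3 and matplotlib 3.10.9. The scripts were tested on simulated data.

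Members named with values were OsC3H40 and OsC3H49, the 10 probe sets of highest mean signal, up to 6 rises and 6 falls among the called ones without overlap on either scale, all probe sets of these genes, OsLIC, OsDOS, OsC3H12, and the 2 nearest to log10 2.5 on each side. OsTZF1, also on that list, matched no name in the gene table. Others are named where the text says so. Alternatives were 1 or 64 added before log2, filters on dim probe sets, eBayes without trend or robust, the analysis of variance that the methods name for single probes, quantile normalization, scaling to the median or to the hybridization controls, a replicate block, other levels of log10 signal, and leaving out each array. Leaving out both arrays numbered 5 was added after the data had been seen. No probe or protein sequence was used here.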

Additional observations from a re-analysis of the deposited data

Results flagged for a closer look

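In groups of 5 arrays, a value was marked where the gap of the highest or lowest array to the next, as a share of the range of the group, was above 0.71. Chance marks about 1 in 20 groups, and 15 of 148 groups of the named members were marked. Of these, 11 were arrays of 93-11 replicate 5. The 2 probe sets of OsC3H33, which were added for their values on that array, gave 4 of the marks, and without them 11 of 140 groups were marked, 7 of them on that array.

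That array was the highest of its cultivar in both probe sets of OsC3H33, with shares of 0.941 (4360 against 480.5 to 711) as deposited and 0.939 after scaling for OsC3H33a, and 0.945 (4111 against 497 to 695) and 0.972 for OsC3H33b. It was also the highest in OsC3H2a after scaling, with a share of 0.714 (3636 against 1153 to 1863), and in OsC3H37 after scaling, with 0.857 (560.4 against 257 to 300.1). As deposited it was the highest in OsC3H46, with 0.737 (249 against 146 to 173), and in the very dim OsC3H53c, with 0.719 (6.25 against 0.95 to 2.45). It was the lowest in OsC3H8a after scaling, with 0.741 (1966 against 2434 to 2598), in OsC3H27 after scaling, with 0.764 (1656 against 1970 to 2067), and in OsC3H53b as deposited, with 0.757 (330.0 against 499.9 to 555).

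The other 4 were spread over 3 arrays. Replicate 4 of 93-11 was the lowest in OsC3H12b after scaling, with 0.757 (337 against 416 to 441). Nipponbare replicate 2 was the highest in OsC3H18a as deposited, with 0.811 (1709 against 964 to 1105). Nipponbare replicate 3 was the lowest in OsC3H18b after scaling, with 0.864 (562 against 841 to 885), and the highest in OsC3H19 after scaling, with 0.764 (549 against 309 to 366). The cause of these values was not tested.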

How the results depend on the processing

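The 44 highly expressed probe sets were 15 at a level of 3.0. The 8 lower calls as deposited became 5 with the analysis of variance, 15 with both arrays numbered 5 left out, and 5 to 18 without 1 array. After scaling, the 11 higher calls became 2 with scaling to the hybridization controls and were 9 to 12 without 1 array, and the 6 lower calls became 2 among probe sets above log10 2.5, where OsC3H40, OsC3H4, OsC3H18c and OsC3H43 fall out of the test, and were 4 to 7 without 1 array. The causes of the other shifts were not tested. Over all rice probe sets, the 6788 lower calls as deposited became 5663 with the analysis of variance and 8720 with both arrays numbered 5 left out. Without 1 array they were 5325 to 9678. After scaling, the 4490 higher calls became 1413 with the hybridization controls and were 3558 to 4781 without 1 array. The 5274 lower calls were 4718 to 5319 without 1 array, and 1370 of the 11921 probe sets above log10 2.5 were called lower. The share of higher against lower calls moved with the scaling: 2 to 8 as deposited, 11 to 6 scaled, 12 to 5 by quantiles and 14 to 5 by medians. It moved likewise over all 57258 rice probe sets, so the shift is not particular to the family. There the calls were 951 to 6788 as deposited, 4490 to 5274 scaled, 5772 to 4826 by quantiles and 6682 to 4585 by medians.

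Of the alternatives for differences of single members, 780 kept direction and side of the threshold, 15 passed it, 67 lost it and 31 changed sign, each in a difference that limma had not called. As deposited, OsC3H17a turned from -0.03 to 0.32 scaled and 0.28 by quantiles, and OsC3H53a from -0.08 to 0.27 and 0.21. With both arrays numbered 5 left out, the deposited differences were -0.042 for OsC3H14, -0.099 for OsC3H22, -0.014 for OsC3H23, -0.031 for OsC3H66, and -0.45 and -0.32 for OsC3H33a and OsC3H33b, and the scaled one of OsC3H33a was -0.0081. Without 1 array, the deposited ranges were -0.11 to 0.16 for OsC3H14, -0.034 to 0.15 for OsC3H15a, -0.11 to 0.085 for OsC3H17a, -0.054 to 0.17 for OsC3H18a, -0.081 to 0.13 for OsC3H22, -0.034 to 0.22 for OsC3H23, -0.34 to 0.45 and -0.19 to 0.56 for OsC3H33a and OsC3H33b, -0.14 to 0.024 for OsC3H53a and -0.056 to 0.10 for OsC3H66.

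Replicate numbers are shared by the cultivars, and same-numbered arrays resembled each other for 2 of the 5 numbers. Correlations were taken between deviations from the cultivar mean. They were 0.52 for number 4 and 0.54 for number 5, and these 4 arrays each correlated best with their own number in the other cultivar. For numbers 1, 2 and 3 they were 0.07, -0.01 and -0.13, and none of these arrays correlated best with its own number. With the replicate number as a block, the deposited values gave 2 higher and 8 lower calls and the scaled ones 12 and 6, though not the same members. Over all 57258 rice probe sets the block gave 886 higher and 6543 lower calls as deposited and 5205 and 5484 after scaling. As deposited OsC3H19 was gained (limma adjusted p = 0.0466) and OsC3H25 lost (0.0842). After scaling OsC3H12b (0.0489), OsC3H31 (0.0236) and OsC3H5a (0.0490) were gained and OsC3H11a (0.0605) and OsC3H66 (0.0519) lost.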
